A study of Callithrix jacchus with 20 samples.

Results

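A set of 14 genes was described whose RNA was high in every marmoset library from cells kept in TESR medium and low in every library from cells kept in cjPSCM. The members were chosen by measured values, namely the counts normalised by size factors that the authors deposited. A gene was taken if its lowest value over the 6 TESR libraries was at least 3 times the highest value plus 1 over the other 14 libraries, and if its mean over the 6 was at least 20. Of the 25102 counted genes, 12847 reached that mean, and 14 met both conditions. The set held SPP1, BMP7, CDH1, EOMES, GJB2, TCF21, POU4F2, EDN3, EBF2, NKX2-2, CPZ, B3GNT5 and the uncharacterised LOC103794765. Because the rule used the difference between the 6 and the 14 libraries, that difference is given below as a description and was not tested.

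All libraries came from DPZ_cjiPSC2, an induced pluripotent stem cell (cjiPSC) line of the common marmoset, Callithrix jacchus, so the data hold 1 line and no other genetic background. There were 20 poly(A) RNA-seq libraries of 10 conditions, with 2 biological replicates each. The 6 TESR libraries were cjiPSCs in TESR medium and the pre-mesendoderm (pre-ME) induced from them by the WNT activator CHIR99021, either with activin A (pre-ME + ActA) or without it (pre-ME − ActA). The other 14 libraries were cjiPSCs in cjPSCM, a medium with N2B27 base, CHIR99021, a SRC inhibitor, a tankyrase inhibitor, vitamin C, LIF, TGFβ and FGF2, the pre-ME made from these with or without ActA, and the primordial germ cell-like cells (cjPGCLCs) and somatic cells that were sorted from day 4 embryoid bodies of each. No cjPGCLCs or somatic cells came from TESR cultures, so only 3 of the 7 conditions outside TESR medium have a counterpart in it. Per the study's methods, pre-ME and embryoid bodies were made in media of their own. For these cells, TESR medium and cjPSCM below name the medium of the cjiPSCs they came from. The medium thus changed together with the induction in every comparison of pre-ME with cjiPSCs. The replicates are cultures of 1 line, and the p-values below rest on a spread between such cultures that is shared over all 20 libraries. Replicates differed most in cjiPSCs. Their chi-square per degree of freedom against sampling noise was 40.2 in TESR medium and 42.4 in cjPSCM, and 3.23 to 15.4 in the other conditions. The p-values of comparisons with cjiPSCs may therefore be too small.

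Most of the 14 genes are known from embryonic patterning and from epithelia. Mesendoderm forms when WNT and activin or NODAL signals act on pluripotent cells, which then switch on T-box factors such as EOMES and, as they leave the epithelium, lose the adherens junction protein E-cadherin, the product of CDH1. The other transcription factors of the set mark organs that form later, among them mesothelium and kidney, retina, fat and the ventral neural tube.

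The number of counts on genes lay between 4784964 and 22067099 per library, and 3 counts corresponded to 1.4 to 4.47 normalised counts in the TESR libraries and to 1.77 to 6.92 in the others. The pluripotency gene POU5F1 read 1049 and 1765 normalised counts in TESR cjiPSCs and 2323 and 2926 in cjPSCM cjiPSCs, and SOX2 read 2708 and 4610.1 against 3491 and 5071. Both pluripotency genes were well expressed in the cjiPSC libraries of either medium. They do not set cjiPSCs apart, as POU5F1 read 1184 to 1287 and SOX2 2214 to 3245 in the 4 somatic libraries. NANOG read 669 and 633 in TESR cjiPSCs, 1760.5 and 1300.0 in cjPSCM cjiPSCs and 92.2 to 203 in the somatic libraries. The mesoderm gene TBXT, a marker of pre-ME, read 55.3 and 31.8 in TESR pre-ME + ActA but at most 1.67 in the 4 pre-ME libraries from cjPSCM. In TESR pre-ME − ActA it read 14.8 and 7.95, which overlapped the 4.41 and 11.9 of TESR cjiPSCs. MIXL1, another mesoderm gene, read 87.6 and 95.5 in TESR pre-ME + ActA and 19.2 and 11.2 in cjPSCM pre-ME + ActA. It read 10.4 and 5.93 in cjPSCM cjiPSCs and 4.13 and 4.95 in cjPSCM pre-ME − ActA. The share of reads that fell outside genes was 10.6% and 13.3% in TESR cjiPSCs and 19.3% to 20.6% in the 4 TESR pre-ME libraries. This share moves with every comparison of TESR pre-ME with TESR cjiPSCs below, and its part in them was not tested. The 4 TESR pre-ME libraries were also numbered apart from all others in the series. Whether they were a batch of their own is not stated. Such a batch could not be told apart from the condition where TESR pre-ME is compared with cjiPSCs or with cjPSCM pre-ME.

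**Figure D1:**
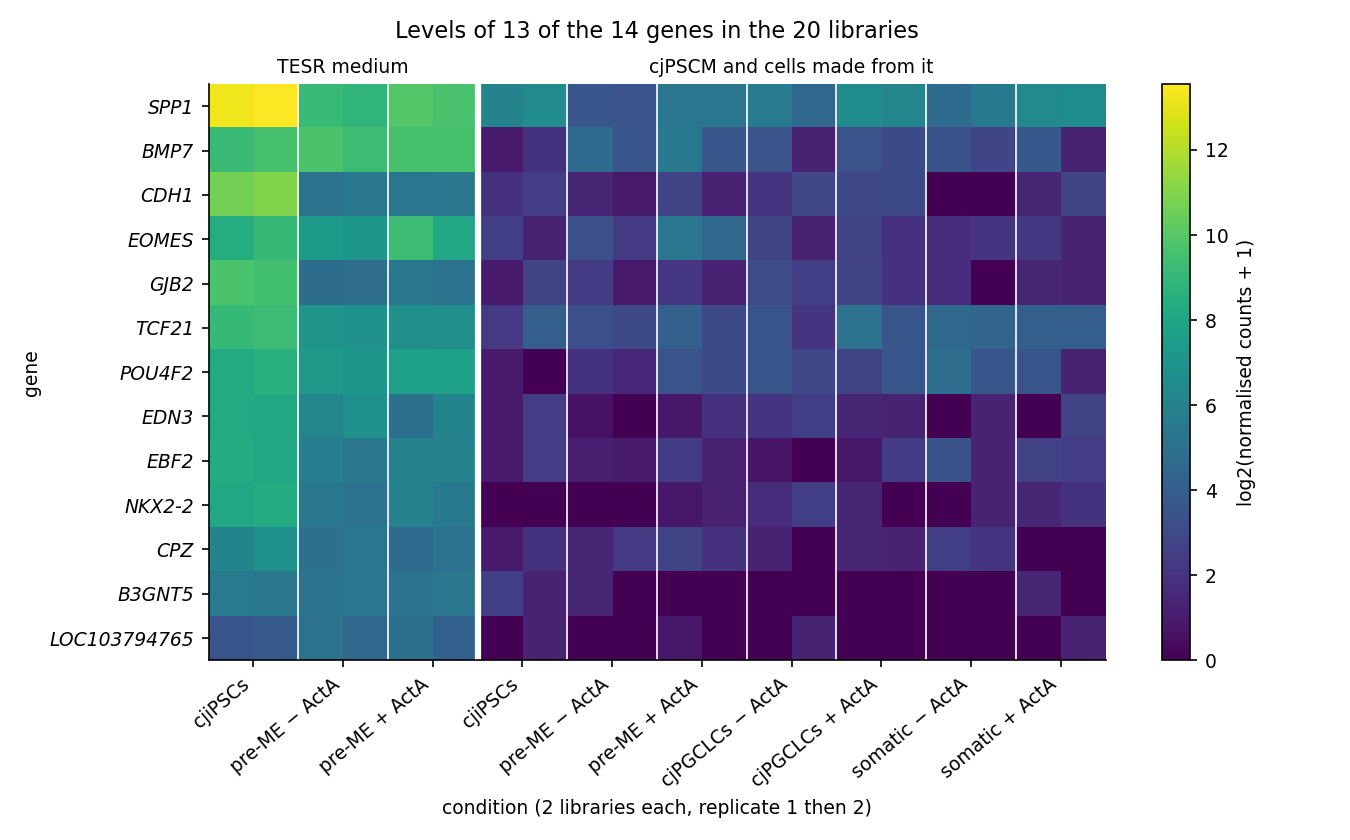
Levels of 13 of the 14 genes (rows, ordered by their mean over the 6 TESR libraries) in the 20 libraries (columns, 2 per condition) as log2 of the normalised counts plus 1. The 6 columns left of the thick line are the TESR libraries, and the brightest cells are SPP1 in TESR cjiPSCs with 9797 and 11993 normalised counts.

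The set spanned a wide range of levels. The mean over the 6 TESR libraries ran from 21 normalised counts for LOC103794765 to 4104 for SPP1, and 11 of the 14 genes had their highest TESR value in cjiPSCs. By role the set held 5 transcription factors, 4 secreted proteins, 2 proteins of cell junctions, the glycosyltransferase B3GNT5 and 1 long non-coding RNA. Outside TESR medium 124 of the 196 values of the 14 genes stood for 3 counts or fewer and 47 were 0. NKX2-2 and LOC103794765 did not exceed 3 counts in any of the 14 libraries, and B3GNT5 exceeded them in 1. By contrast SPP1 had more than 3 counts in all 14, from 9.91 to 95.5 normalised counts, and TCF21 in 13 of 14, with a highest value of 33. BMP7 and EOMES reached 44.2 and 39.2 in a cjPSCM pre-ME + ActA library, and POU4F2 reached 27.7 in a somatic library. The RNA of SPP1, TCF21, BMP7, EOMES and POU4F2 was therefore lower but not absent outside TESR medium. The set is better called high in TESR medium than restricted to it. In bulk libraries, fewer cells with a transcript and less transcript per cell cannot be told apart.

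BMP7 was separated most widely, as its lowest TESR value was 13.4 times the highest other value plus 1. Just inside the limit lay GJB2 with a ratio of 3.06, TCF21 with 3.11 and EOMES with 3.52. Just outside it lay HOXB9 with 2.84, FOXL2 with 2.72 and MSC with 2.55, and HOXB9 would join the set if 1 were added after the multiplication instead of before it. FOXL2, a transcription factor of the ovary and eyelid, was well expressed in TESR medium with a mean of 323 normalised counts but reached 82.9 in cjPSCM cjiPSCs.

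**Figure D2:**
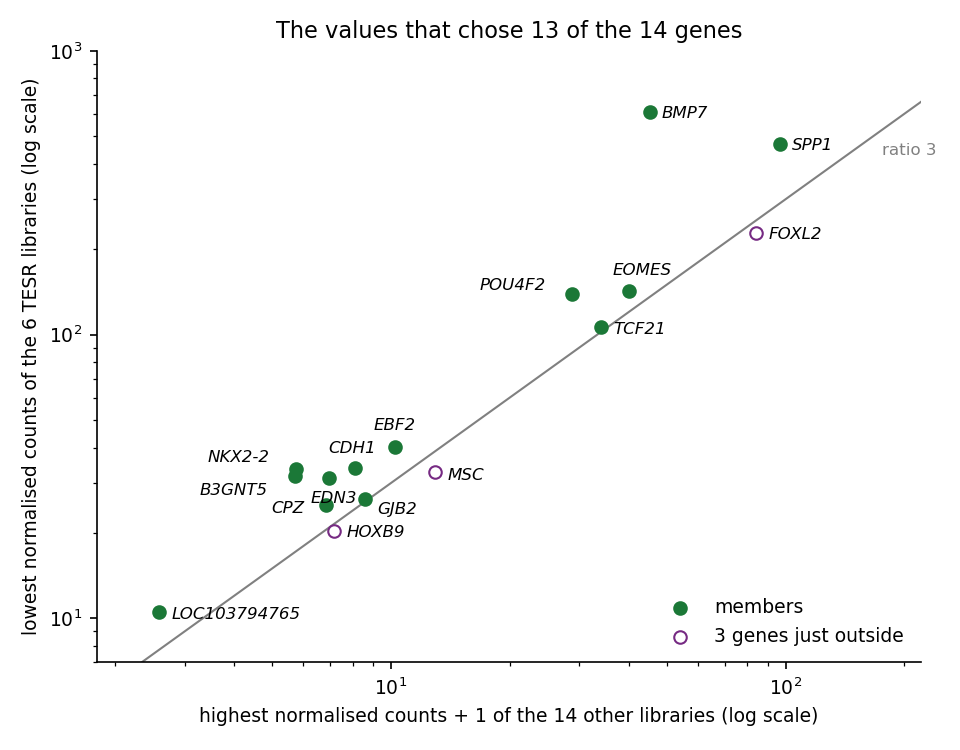
The values that chose 13 of the 14 genes, with the highest normalised counts plus 1 among the 14 libraries outside TESR medium on the x axis and the lowest normalised counts among the 6 TESR libraries on the y axis (both log scales). Filled circles above the line at a ratio of 3 are the members, and open circles are HOXB9, FOXL2 and MSC, the 3 genes just below it.

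The comparisons among the 6 TESR libraries did not enter the rule, except that every member had to stay well above the other libraries in all 6, which limits how far one could fall. The rule also left out genes that were low in TESR cjiPSCs and switched on in pre-ME. The counts of higher and lower members below are therefore partly set by the rule, unlike the shares of all genes beside them. They were tested on the raw counts with edgeR's quasi-likelihood test over 15797 genes with Benjamini-Hochberg adjustment, and a gene was called where its adjusted p was under 0.05 and its log2 fold change lay below −2 or above 2. In pre-ME − ActA 7 of the 14 genes fell relative to cjiPSCs, where 3.32% of all tested genes were called lower. In pre-ME + ActA 8 of 14 fell, against 2.53% of all genes. The median log2 fold change of the 14 was −1.97 and −2.34 in these comparisons, and that of all tested genes was −0.03 and −0.02. None was called higher in either by edgeR, where 4.54% and 4.44% of all genes were, and 1 and 0 members had a positive change at an unadjusted p under 0.05. DESeq2 gave the same 7, 8 and 0 calls. The comparisons with and without ActA share the cjiPSC libraries, so their calls are not independent of each other.

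Between pre-ME + ActA and pre-ME − ActA from TESR cultures edgeR and DESeq2 called 0 of the 14 genes in either direction, with 2 higher and 1 lower at an unadjusted p under 0.05. Of all tested genes 1.43% were called higher and 0.57% lower with ActA. The median log2 fold change was 0.06 for the 14 and 0.01 for all genes.

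**Figure D3:**
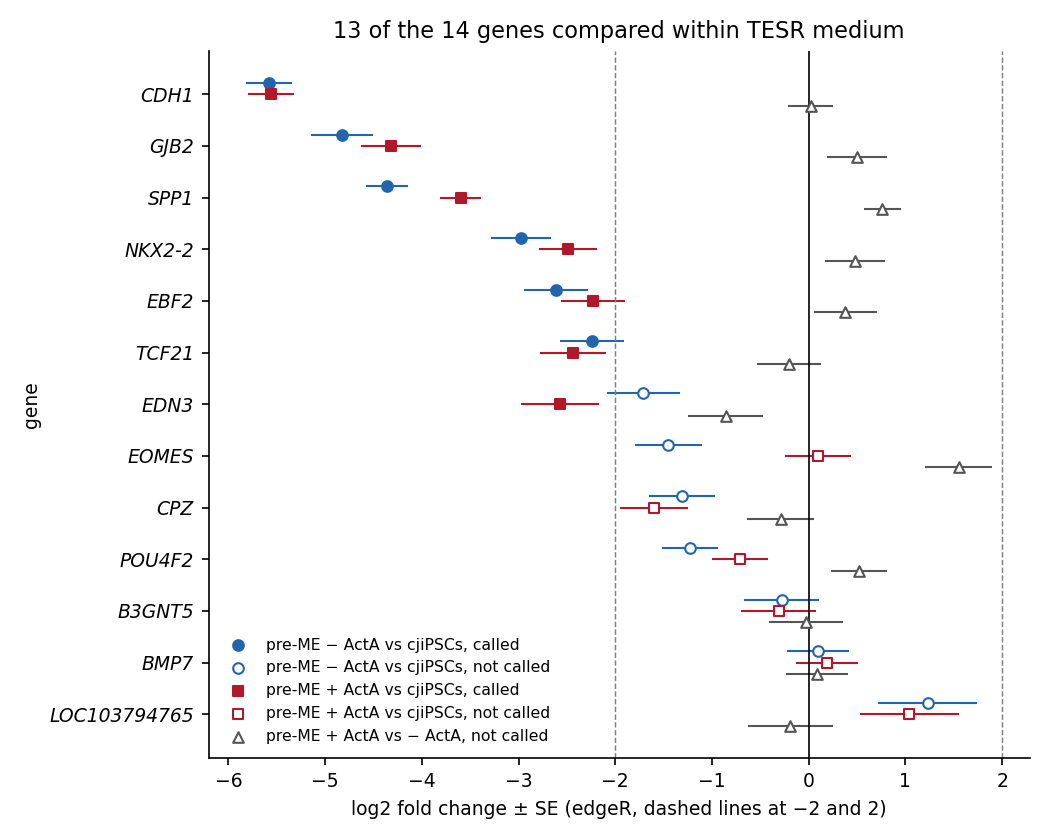
The log2 fold change (x axis, with SE as bars) of 13 of the 14 genes in the 3 comparisons within TESR medium, with filled symbols for called genes. CDH1 lies farthest left with −5.58 and −5.56 in the comparisons of pre-ME with cjiPSCs and GJB2 next with −4.83 and −4.32, while BMP7 and B3GNT5 lie near 0 in all 3.

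Both junction proteins showed the steepest differences. CDH1, which encodes E-cadherin, the calcium-dependent adhesion protein of epithelial adherens junctions, read 1710 and 2012 normalised counts in TESR cjiPSCs. In pre-ME − ActA it read 34 and 42.6, and in pre-ME + ActA 38.3 and 39.8. The pre-ME libraries lay far below both cjiPSC libraries and close to each other. CDH1 thus fell by 5.58 on the log2 scale (SE 0.24, adjusted p = 4.15e-10, 48.6-fold lower) without ActA and fell by 5.56 (SE 0.24, adjusted p = 4.67e-10) with it. Between the pre-ME conditions the log2 difference was 0.02 (SE 0.23, adjusted p = 0.984). In the 14 other libraries CDH1 read between 0 and 7.11, and 8 of them held 3 counts or fewer.

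GJB2, which encodes the gap junction protein connexin 26, read 843 and 701 normalised counts in TESR cjiPSCs. It read 26.3 and 27.6 in pre-ME − ActA and 42.7 and 34 in pre-ME + ActA, so no pre-ME library came near the cjiPSC libraries. GJB2 fell by 4.83 on the log2 scale (SE 0.32, adjusted p = 2.28e-08, 28.6-fold lower) without ActA and fell by 4.32 (SE 0.31, adjusted p = 5.40e-08) with it. Outside TESR medium its highest value was 7.59, in a cjPGCLC library.

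No other tested gene of a list of epithelial adhesion genes was called lower with CDH1. Of the 33 genes, edgeR and DESeq2 both called 1 higher in TESR pre-ME − ActA and 2 in pre-ME + ActA, and both called 0 lower. Of all tested genes edgeR called 4.54% and 4.44% higher and 3.32% and 2.53% lower, so that few calls would be found among any 33 genes. At an unadjusted p under 0.05 there were 6 lower and 7 higher without ActA, and 4 lower and 7 higher with it. CDH3 and JUP were not called but lay lower in all 4 pre-ME libraries than in TESR cjiPSCs. CDH3 read 1953 and 3117 in TESR cjiPSCs and 750.4 to 850.4 in pre-ME. JUP read 1828 and 2421 in TESR cjiPSCs and 636 to 885 in pre-ME. DSP, which encodes the desmosome protein desmoplakin, rose from 458 and 654 normalised counts in TESR cjiPSCs to 2623 and 2033 without ActA and to 5020.1 and 3024 with it. ESRP2, an epithelial splicing factor, had 18.1 ± 3.83 (SD, n = 2) in TESR cjiPSCs and rose to 79.7 ± 23.4 with ActA. It read 64.7 and 63.2 without ActA, where it was not called, and these values overlapped the 96.3 and 63.2 with ActA. The median log2 fold change of the list was 0.03 in both comparisons. EPCAM, the epithelial adhesion molecule, read 553 and 682 in TESR cjiPSCs and 546 to 996 in the 4 pre-ME libraries, so that the groups overlapped. In a list of 13 tested genes that repress CDH1 or mark mesenchyme, FOXC2 was lower in both pre-ME conditions, with ActA by edgeR only and not by DESeq2, and TWIST1 and FN1 were higher in pre-ME + ActA. FN1, which encodes fibronectin, was at 11348 ± 375 normalised counts (SD, n = 2) before induction and rose to 50166 ± 1389 with ActA.

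Of the 5 transcription factors TCF21, EBF2 and NKX2-2 fell in both pre-ME conditions, whereas EOMES and POU4F2 were not called. NKX2-2, a homeobox factor of ventral neural progenitors and pancreatic endocrine cells, read 272 and 326 normalised counts in TESR cjiPSCs. It read 41.7 and 33.7 in pre-ME − ActA and 62.4 and 43 in pre-ME + ActA, with no overlap with cjiPSCs. The log2 fold changes were −2.97 (SE 0.31, adjusted p = 6.75e-06) and −2.49 (SE 0.30, adjusted p = 2.95e-05). Outside TESR medium it was at 0 in 6 of the 14 libraries, including both cjPSCM cjiPSC libraries.

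NKX2-2 belongs to a list of 12 neural progenitor markers. Of the 5 other tested members of that list, PAX6 and LHX2 were higher in TESR than in cjPSCM cjiPSCs, and 0 were lower by edgeR, by DESeq2 or at an unadjusted p under 0.05. The summed level of the 10 other listed genes in the table was 16271 and 31289 normalised counts in TESR cjiPSCs and 19752 and 22213 in cjPSCM cjiPSCs, so that the sums overlapped. Among them NEUROG2 was at 0 in both TESR cjiPSC libraries, and SIX3 in both cjPSCM cjiPSC libraries. PAX6 and LHX2 made up little of the sums, with means of 21.2 and 495 in TESR cjiPSCs. In the conditions other than cjiPSCs the sums ran from 11012 to 27400.3, so they cannot show whether neural cells were present. The part of neural cells in the level of NKX2-2 was not tested.

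EBF2, a factor of brown fat and neuronal precursors, read 321 and 280 normalised counts in TESR cjiPSCs and 40.2 to 64 in the 4 pre-ME libraries. It fell by 2.61 on the log2 scale (SE 0.33, adjusted p = 2.40e-05) without ActA and fell by 2.23 (SE 0.33, adjusted p = 8.72e-05) with it. TCF21, a basic helix-loop-helix factor of mesothelium, kidney and heart mesenchyme, read 548 and 624 in TESR cjiPSCs and 106 to 130 in pre-ME. Its log2 fold changes were −2.24 (SE 0.33, adjusted p = 8.87e-05) and −2.44 (SE 0.34, adjusted p = 4.78e-05), and the 4 pre-ME libraries differed less from one another than from cjiPSCs.

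POU4F2, a POU homeobox factor of retinal ganglion cells, read 307 and 396 normalised counts in TESR cjiPSCs, 157 and 139 in pre-ME − ActA and 208 and 217 in pre-ME + ActA. The log2 fold change was −1.23 (SE 0.29, adjusted p = 0.00398) without ActA and −0.71 (SE 0.29, adjusted p = 0.069) with it, and neither passed the fold threshold.

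EOMES, the T-box factor of mesendoderm and early endoderm, was the factor whose level went most with ActA. It read 329 and 536 normalised counts in TESR cjiPSCs, 169 and 142 in pre-ME − ActA and 641 and 267 in pre-ME + ActA. Both libraries with ActA lay above both without it, but they differed from each other by more than did the libraries of any other TESR condition. The log2 fold change was 1.55 (SE 0.35, adjusted p = 0.00874) between pre-ME + ActA and pre-ME − ActA, below the log2 threshold of 2, and 2.05, above it, without replicate 2 of pre-ME + ActA. Against cjiPSCs it was −1.45 (SE 0.35, adjusted p = 0.00427) without ActA and 0.10 (SE 0.34, adjusted p = 0.859) with it. Of the 5 other tested genes in a list of 8 mesoderm markers, MIXL1 and HAND1 rose with ActA in TESR pre-ME. The summed level of the 7 other listed genes was 30.3 and 35.7 in TESR cjiPSCs, 41.6 and 57.1 in pre-ME − ActA and 194 and 289 in pre-ME + ActA, and none was at 0 in both libraries of any of these. Both cjiPSC values of EOMES lay inside the range of pre-ME + ActA, where the summed markers were higher, and the part of differentiated cells in its level was not tested.

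Among the secreted proteins SPP1 was the most abundant gene of the set. SPP1, which encodes the matrix phosphoprotein osteopontin, read 9797 and 11993 normalised counts in TESR cjiPSCs. It read 580 and 469 in pre-ME − ActA and 977 and 806 in pre-ME + ActA, and the 3 conditions did not overlap. SPP1 fell by 4.36 on the log2 scale (SE 0.22, adjusted p = 9.32e-10, 20.8-fold lower) without ActA and fell by 3.60 (SE 0.21, adjusted p = 6.05e-09, 12.2-fold lower) with it. The pre-ME conditions differed by 0.76 (SE 0.19, adjusted p = 0.0171), below the fold threshold.

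EDN3, which encodes endothelin 3, a ligand of neural crest cells, read 309 and 287 normalised counts in TESR cjiPSCs. It read 69.7 and 111 in pre-ME − ActA and 31.2 and 68.5 in pre-ME + ActA, so that replicates of pre-ME differed widely while all lay below cjiPSCs. The log2 fold change was −1.71 (SE 0.38, adjusted p = 0.00229) without ActA, which missed the fold threshold, and −2.57 (SE 0.40, adjusted p = 1.34e-04) with it. Without replicate 2 of pre-ME − ActA the former became −2.09 and passed it. CPZ, a secreted carboxypeptidase with a domain like that of WNT receptors, read 69.4 and 109 in TESR cjiPSCs and 25.2 to 38.4 in pre-ME, with log2 fold changes of −1.31 (SE 0.34, adjusted p = 0.00741) and −1.60 (SE 0.35, adjusted p = 0.0024).

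BMP7, a bone morphogenetic protein, was the member with the steadiest level. It read 608 and 786 normalised counts in TESR cjiPSCs, 846 and 626 in pre-ME − ActA and 782 and 788 in pre-ME + ActA, and these groups overlapped. The log2 fold changes against cjiPSCs were 0.10 (SE 0.32, adjusted p = 0.847) and 0.19 (SE 0.32, adjusted p = 0.684).

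B3GNT5, a glycosyltransferase that starts the lacto- and neolacto-series of glycolipids, kept 31.7 to 48.5 normalised counts in all 6 TESR libraries, and its log2 fold changes of −0.28 (SE 0.39, adjusted p = 0.613) and −0.31 (SE 0.39, adjusted p = 0.576) did not pass the test.

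LOC103794765, a long non-coding RNA gene that the RefSeq order places between HOXA7 and HOXA6, was the only member whose 4 pre-ME libraries all lay above both cjiPSC libraries. It read 10.5 and 13.4 normalised counts in cjiPSCs, 33.5 and 21.1 in pre-ME − ActA and 30.1 and 17.5 in pre-ME + ActA. The groups did not overlap, but the log2 fold changes of 1.23 (SE 0.51, adjusted p = 0.0726) and 1.04 (SE 0.51, adjusted p = 0.132) did not pass the test. The strand setting of the counting is not given in the sources used here, so reads of this gene and of HOXA transcripts on the other strand cannot be told apart.

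The same steps were then compared within cjPSCM, where by the rule all members were low. Between pre-ME − ActA and cjiPSCs in cjPSCM, 1 member was called higher and 1 lower, against 2.11% and 3.16% of all genes. Between pre-ME + ActA and cjiPSCs, 3 were higher, against 1.42% of all genes, and 0 were lower, against 1.64%, with 2 lower at an unadjusted p under 0.05 and 0 by DESeq2. The 1 and 3 calls of higher members became 0 when edgeR was fitted on the 4 compared libraries alone, where POU4F2 did not pass the low-count filter, and also without replicate 1 of cjPSCM cjiPSCs or replicate 1 of the pre-ME condition. Between both pre-ME conditions 1 was higher with ActA, where 1.42% of all genes were.

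EOMES read 4.71 and 1.48 normalised counts in cjPSCM cjiPSCs, 8.84 and 3.96 in pre-ME − ActA and 39.2 and 22.5 in pre-ME + ActA. As in TESR medium, both libraries with ActA lay above both without it, and the log2 fold change was 2.18 (SE 0.57, adjusted p = 0.0145) between them. This call was lost without replicate 1 of pre-ME + ActA (1.67) or replicate 2 of pre-ME − ActA (1.81). SPP1 read 65.9 and 90.4 in cjPSCM cjiPSCs, 11.2 and 9.91 in pre-ME − ActA and 39.2 and 39.3 in pre-ME + ActA, and it fell by 2.80 on the log2 scale (SE 0.33, adjusted p = 1.33e-05) without ActA.

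BMP7 read 0.942 and 2.96 normalised counts in cjPSCM cjiPSCs, which is 1 and 2 counts, 25.3 and 10.9 in pre-ME − ActA and 44.2 and 11.2 in pre-ME + ActA. It was called higher in both pre-ME conditions (adjusted p = 0.00987 and 0.00522), and both calls were lost without replicate 1 of cjPSCM cjiPSCs, with log2 fold changes of 2.72 and 3.36, or without replicate 1 of the pre-ME condition, with 2.62 in each. POU4F2 read 0.942 and 0 in cjPSCM cjiPSCs and 10 and 7.02 in pre-ME + ActA (adjusted p = 0.0189), and this call was lost without replicate 1 of either condition. The low counts in cjiPSCs make the size of both changes uncertain.

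The change from cjiPSCs to pre-ME is set side by side for both media as a description. The difference between the media was not tested, because it is built from the differences that chose the members. With ActA the changes can be given for 10 members, while the other 4 had 3 counts or fewer in all 4 cjPSCM libraries compared, as had 6 members without ActA. For SPP1 the log2 fold change in pre-ME + ActA was −3.60 in TESR medium and −0.95 in cjPSCM. For CDH1 the changes were −5.56 and 0.26, for GJB2 −4.32 and −0.15, and for TCF21 −2.44 and 0.53. For EOMES they were 0.10 and 3.19, and for BMP7 0.19 and 4.06. CDH1 and GJB2 had 1 to 4 counts in the cjPSCM cjiPSC libraries, where a further decrease could hardly be measured. TCF21 had 4 and 11 counts in them, which also left little room for a decrease, and SPP1 had 70 and 61. With members chosen as low in cjPSCM, a fall could be seen mainly in TESR medium and a rise mainly in cjPSCM.

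**Figure D4:**
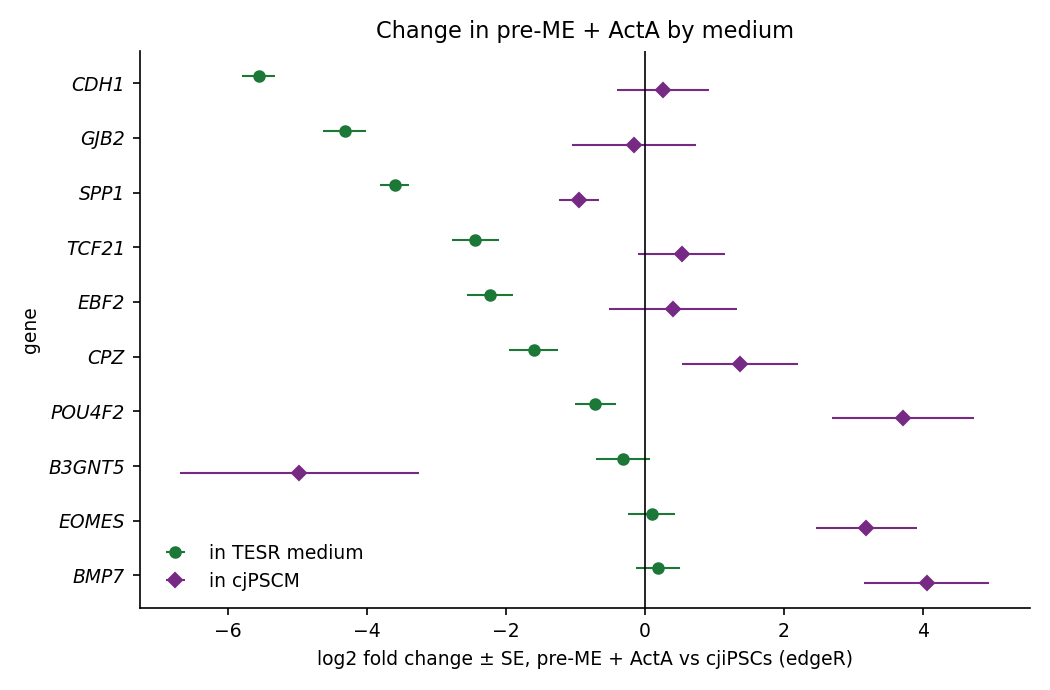
The log2 fold change between pre-ME + ActA and cjiPSCs (x axis, with SE as bars) in TESR medium (circles) and in cjPSCM (diamonds) for the 10 members with more than 3 counts in some cjPSCM library of this comparison. SPP1 lies at −3.60 and −0.95, and B3GNT5 was at 0 in both cjPSCM pre-ME + ActA libraries.

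The members were next looked up in fixed lists and in families of gene symbols. CDH1 was in the list of epithelial adhesion, EOMES in that of mesoderm markers and NKX2-2 in that of neural progenitor markers, and the other 8 lists held none. Of the genes with a mean of at least 20 in TESR medium 0.202% were in the first list, 0.0311% in the second and 0.0389% in the third. By symbol NKX2-2 and POU4F2 fell in the family of homeobox, SOX, FOX, GATA and T-box factors, which held 0.701% of those genes and whose patterns do not match the symbol EOMES. There was 1 cadherin (CDH1), and none was a zinc finger gene, an ion channel, a collagen, laminin or integrin, or a G protein-coupled receptor.

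Among the lists without members, primed pluripotency genes (20 tested) had FGF2 higher and THY1 lower in TESR than in cjPSCM cjiPSCs, and NOTCH targets (13 tested) had HEY1 and HEY2 higher and HES4 lower. Of 21 tested imprinted genes IGF2, DLK1 and MEST were higher and PHLDA2 and L3MBTL1 lower, PHLDA2 by edgeR only. In cjPSCM cjiPSCs the replicates of the lower genes lay far apart, with 90.6 ± 75.7 normalised counts (SD, n = 2) for PHLDA2 and 26.4 ± 36 for L3MBTL1. Of 6 tested germline genes TEX11 and TDRD9 were higher. The higher calls of TEX11 and FGF2 rested on low levels with replicates that lay apart. TEX11 had 22.2 ± 6.06 normalised counts (SD, n = 2) in TESR and 2.96 ± 4.19 in cjPSCM cjiPSCs, and FGF2 had 13.8 ± 6.93 and 4.18 ± 4.57. Definitive endoderm markers differed in the other direction, with SOX17, GATA4, GATA6 and HHEX of 7 tested lower in TESR cjiPSCs (SOX17 not by DESeq2) and 0 higher by edgeR, by DESeq2 or at an unadjusted p under 0.05. Their summed level was 289 and 408 normalised counts in TESR and 3117 and 4434 in cjPSCM cjiPSCs. Of 10 tested fibroblast and mesenchyme markers COL1A2 and PDGFRB were higher and DCN, LUM and THY1 lower. Of 5 tested amnion and surface ectoderm markers 0 were called in either direction by edgeR or DESeq2, with 2 higher at an unadjusted p under 0.05. The shares over all genes that are no members were 3.58% higher and 5.52% lower in this comparison.

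Whether neighbours in the genome went together was examined with the order of genes in RefSeq, since all 14 members and 21533 of the 25102 genes were found in it by name. That order is of another assembly than the one used for the counts, so no coordinates are given. The 14 genes lay on 8 chromosomes, and 0 of them were next to another member. There were 10 pairs on the same chromosome, and the closest, BMP7 and EDN3, had 22 genes of the count table between them. The opposite rule, for genes high in all 14 libraries and low in the 6, gave 20 genes, of which 19 were placed and 2, FAM133A and NAP1L3, were next to each other. These 2 were named after their values were seen.

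The nearest tested gene on each side of each member gave 28 neighbours, none of them a member. Nearer genes that were too low to be tested, such as GJB6 beside GJB2, NKX2-4 beside NKX2-2 and HOXA6 beside LOC103794765, were passed over. In cjiPSCs 4 of the 28 were called higher in TESR medium than in cjPSCM, against 3.58% of all other tested genes, and 1 was lower, against 5.52%. In pre-ME − ActA 1 was higher and 0 lower, against 1.13% and 2.69%. In pre-ME + ActA 0 were higher by edgeR, against 1.35%, and 0 by DESeq2, and 1 was lower, against 2.69%. At an unadjusted p under 0.05, 8 were higher there, a limit for which no share over all genes is given. The median log2 fold change of the neighbours was 0.35, 0.09 and 0.28 in cjiPSCs, pre-ME − ActA and pre-ME + ActA, and that of the other genes 0.00, 0.01 and 0.02. A neighbour called higher in all 3 comparisons was not found.

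CDH3, which encodes P-cadherin and adjoins CDH1, came closest. It read 1953 and 3117 normalised counts in TESR cjiPSCs and 42.4 and 170.5 in cjPSCM cjiPSCs, a log2 fold change of 4.68 (SE 0.47, adjusted p = 1.12e-06). In pre-ME − ActA it read 832 and 750.4 in TESR medium and 211 and 122 from cjPSCM, with a log2 fold change of 2.22 (SE 0.42, adjusted p = 0.00127) that became 1.90 and lost its call without replicate 2 of the cjPSCM condition. In pre-ME + ActA the log2 fold change was 1.89 (SE 0.41, adjusted p = 0.00334). CDH3 differed from CDH1 outside the cultures compared, as it read 908 to 3736 in the 4 cjPGCLC libraries and 2057 to 3434 in the 4 somatic libraries, where CDH1 was at most 7.11. On the other side of CDH1 LOC100408611 had a log2 fold change of 0.89 (SE 0.21, adjusted p = 0.00357) in cjiPSCs and was not called.

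GJA3, a connexin gene beside GJB2, read 18.7 and 25.3 normalised counts in TESR cjiPSCs and 0 in both cjPSCM cjiPSC libraries, which is at least 6.06-fold higher against 3 counts per library (adjusted p = 4.44e-04). In TESR pre-ME GJA3 read 0 to 4.68, so that it lay below TESR cjiPSCs as GJB2 did, though GJB2 still read 26.3 to 42.7 there. In the 4 somatic libraries GJA3 read 6.19 to 10.4, which is 3 to 7 counts, where GJB2 was at most 2.31. EYA4, a transcriptional coactivator beside TCF21, read 165 and 138 in TESR and 18.8 and 11.9 in cjPSCM cjiPSCs, a log2 fold change of 3.28 (SE 0.38, adjusted p = 4.72e-06). In TESR pre-ME EYA4 read 39.5 and 51.9 without ActA and 13.7 and 10.6 with it, and its difference between the media was not called there. LOC103791955, beside SPP1, read 93.1 and 81.9 against 22.6 and 20.8, and its log2 fold change of 2.03 (SE 0.29, adjusted p = 4.21e-05) fell under the threshold without replicate 1 of TESR cjiPSCs (1.90) or replicate 2 of cjPSCM cjiPSCs (1.96).

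Beside BMP7 the germ cell and amnion factor TFAP2C went the other way. It read 7.16 and 10.4 normalised counts in TESR cjiPSCs and 213 and 60.8 in cjPSCM cjiPSCs, a log2 fold change of −4.05 (SE 0.55, adjusted p = 2.63e-05). PPP1R3D, beside EDN3, was lower in TESR pre-ME + ActA, with 7.11 and 8.49 against 32.5 and 33.7 (log2 fold change −2.05, SE 0.41, adjusted p = 0.00172). This call was lost without replicate 1 of TESR pre-ME + ActA (−1.93). Beside LOC103794765 HOXA7 read 2.59 ± 0.548 normalised counts (SD, n = 2) in TESR cjiPSCs and 0 in cjPSCM cjiPSCs and was not called (adjusted p = 0.0998), and HOXA3 had a log2 fold change of 0.71 (SE 1.09, adjusted p = 0.65). The genes on both sides of EOMES, EBF2, POU4F2, NKX2-2, CPZ and B3GNT5 were not called in any of the 3 comparisons.

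**Figure D5:**
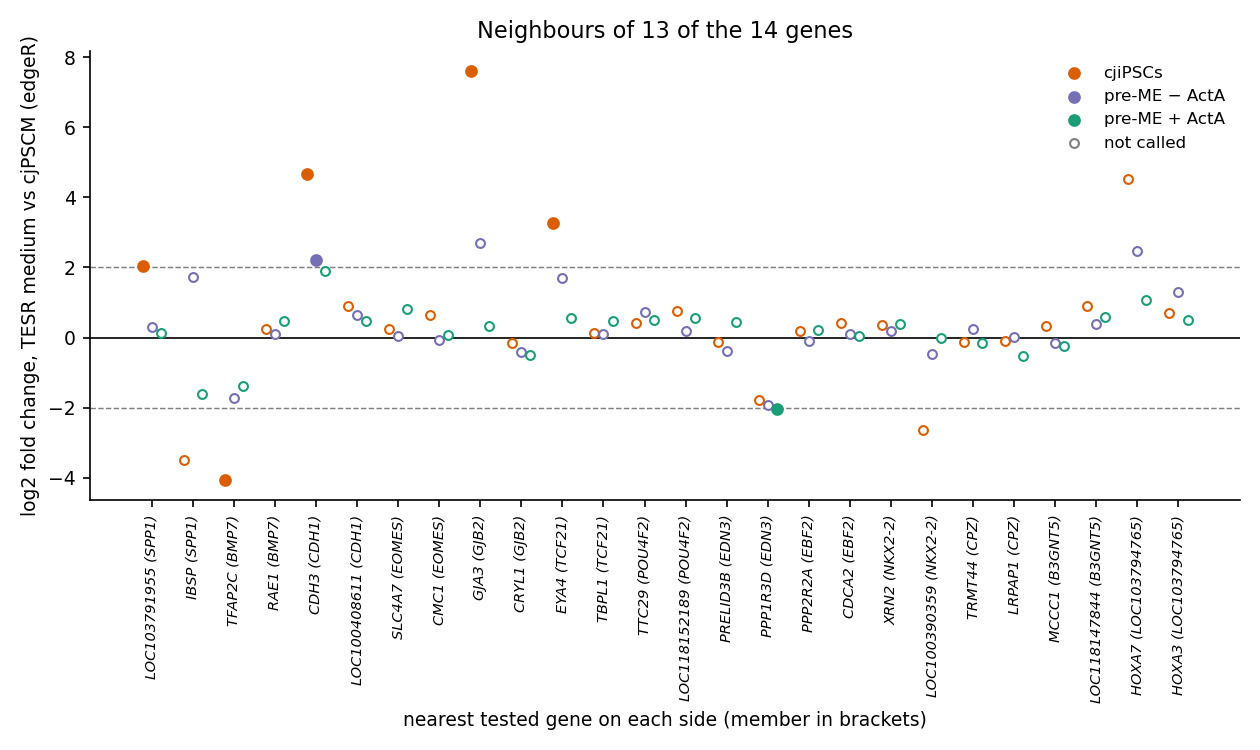
The log2 fold change between TESR medium and cjPSCM (y axis) of the nearest tested gene on each side of 13 members (x axis, member in brackets) in cjiPSCs, pre-ME − ActA and pre-ME + ActA, with filled points for called genes and dashed lines at log2 fold changes of −2 and 2. Of the 26 genes plotted, GJA3, CDH3, EYA4 and LOC103791955 are filled above the upper line in cjiPSCs and TFAP2C below the lower one.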

How the data were processed

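Per the labels and the submitters' processing notes, the authors checked poly(A) paired-end reads with FastQC 0.11.8, mapped them with STAR 2.7.0a to calJac4 and counted them per gene with HTSeq 0.11. They deposited raw counts and a normalised signal, in which each library's counts were scaled by its DESeq2 size factor. The annotation release and strand setting are not given in the sources used here. Cells were sorted by INTα6 together with EpCAM according to the labels, and with CXCR4 according to the study's methods.

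Members were chosen on the normalised counts, which were also used for levels and plots (log2 with a pseudocount of 1). Tests used the raw counts and edgeR 4.0.16 under R 4.3.3 (TMM, filterByExpr, quasi-likelihood F-test, 1 coefficient per condition over all 20 libraries, 10 residual degrees of freedom), with Benjamini-Hochberg adjustment within a comparison, and with DESeq2 1.42.0 as an alternative. Genes were called where the adjusted p was under 0.05 and the log2 fold change lay outside −2 to 2. The test was first run on simulated counts. The other alternatives were size factors for scaling, no low-count filter, fits on the compared libraries only, a replicate block and 20 fits that each left out 1 library. Comparisons within cjPSCM were added after the members were known.

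Floors are 3 counts per library and cover counting error only. All members but 1, which is not reported here, were named. Members, gene lists and the roles were chosen with earlier results of these data known. Summary lines for reads outside genes and ambiguous reads (0.268% to 0.35%) were left out. Promoter and protein sequences were not analysed here.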

Additional observations from a re-analysis of the deposited data

How the results depend on the processing

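The 7 and 8 members that fell in TESR pre-ME − ActA and + ActA were counted the same under DESeq2, DESeq2 size factors, no filter on low counts and edgeR on the compared libraries only. With the adjusted p alone 11 were lower in pre-ME − ActA and 2 were higher with ActA than without it (0 with the fold threshold). Leaving out each library gave 0 to 1 members higher with ActA, the 1 being EOMES. With the adjusted p alone 10, 4 and 3 neighbours were higher in TESR medium in cjiPSCs, pre-ME + ActA and pre-ME − ActA. Shares over all genes are not given for the adjusted p alone. Counts of members or neighbours at this limit therefore cannot be set against the shares above. With 2 tested genes on each side (56 neighbours) 2 were higher in pre-ME + ActA and 3 in pre-ME − ActA, and without a low-count filter 2 in pre-ME − ActA. Leaving out each library gave 0 to 1 in pre-ME + ActA and 0 to 2 in pre-ME − ActA. A rule ratio of 2 gave 22 members and a ratio of 5 gave 4. TMM-scaled values gave the same 14, and leaving out each library in turn 14 to 16, of which 13 or 14 were shared. Without replicate 1 of either TESR pre-ME condition LOC103794765 left the set. Changes near 0 that were not called turned sign, over the leave-one-out fits, for BMP7 (−0.15 to 0.30 without ActA, −0.11 to 0.33 between the pre-ME conditions), EOMES (−0.67 to 0.60 with ActA, and −0.04 with the replicate block), CDH1 (−0.12 to 0.20), B3GNT5 (−0.21 to 0.14) and LOC103794765 (−0.63 to 0.18) between the pre-ME conditions, and for the neighbours GJA3 (−3.35 to 1.26) and LOC103791955 (−0.21 to 0.47) in pre-ME + ActA.

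Libraries with the same replicate number are not stated to be paired, and with 2 pairs a comparison the numbers were not taken as pairs. The correlation of their deviations ran from −0.204 to 0.253. With the replicate block 7 and 8 members were lower, 0 differed with ActA, and 4, 0 and 1 neighbours were higher in cjiPSCs, pre-ME + ActA and pre-ME − ActA. A crossed block, added where that correlation was under −0.1, left 1 and 3 members higher in cjPSCM pre-ME − ActA and + ActA. Of 660 alternative values 610 kept their direction and call, or for counts lay within 1.5 times, and the cause of the others was not tested. In the 14 libraries outside TESR medium most members stood at a few counts, which limits any comparison there.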
